A study of Mus musculus with 8 samples.

Results

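The 45 genes described here encode the machinery of DNA replication and the factors that start and sustain S phase. They were chosen by name, and all 45 were found among the 11783 rows of the deposited expression table, 1 row each. RNA-seq was run on granulosa cells, which surround and feed the oocyte, isolated from C57BL/6 mice. In the 4 PND1 libraries the mice were at postnatal day 1 and in the 4 PND4 libraries at postnatal day 4, and the labels name no treatment or altered allele for either age. The values are FPKM, fragments scaled to transcript length and to the mapped total of a library, so levels can be set side by side between genes. No label ties a library to an animal, a pool or a litter, and the p-values below therefore rest on the spread between these libraries alone, which may be technical. These are bulk samples, in which fewer replicating cells and less replication RNA per cell cannot be told apart.

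A cell copies its genome once per cycle. In G1 the origin recognition complex, CDC6 and CDT1 load the MCM2 to MCM7 ring onto DNA, and in S phase CDC45 and the GINS complex turn that ring into the active helicase. Primase with polymerase alpha starts each strand, polymerases delta and epsilon extend it on the PCNA clamp, and E2F transcription factors switch on many of these genes before S phase. In the newborn mouse ovary granulosa cells of resting primordial follicles are known for leaving the cycle, while those of growing follicles divide.

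E2F factors bind short sequences in promoters, and a few stretches are shown here because they hold such words in MCM ring genes, among the most abundant members, and in a polymerase alpha gene. RefSeq promoter windows (GRCm38.p6) that run from 250 bases before to 50 after an annotated start were found by symbol for 37 of the 45 members, as 44 windows. The words TTTCCCGC, TTTCGCGC, TTTGCCGC and TTTGGCGC were searched on both strands. At least 1 of them stood in 14 of the 44 member windows (31.8%), each of a different gene, against 744 of all 32851 windows (2.26%). CCAAT, the core of the NF-Y site, stood in 61.4% of member windows and 37.4% of all windows, and TTTGAA, an element of late cell-cycle genes, in 11.4% and 17.9%. The 14 genes with an E2F word were Cdc6, Cdt1, Orc1, Gins3, Mcm3, Mcm5, Mcm6, Mcm7, Pola1, Pold1, Pole2, Rfc3, Lig1 and Uhrf1, so 4 of the 5 MCM ring genes with a window had one. A match is a description of letters, and no binding was measured. In the stretches below the capitals mark the words, with 14 bases to either side on the gene's own strand. The places shown are those in MCM and polymerase alpha genes before the annotated start and outside the gene's own annotated span. In Mcm5 and in the first Mcm6 stretch, words on both strands overlap, and 1 CCAAT overlapped an E2F word, in Mcm7.
Mcm5 (chr8:75109342-75109381, plus strand): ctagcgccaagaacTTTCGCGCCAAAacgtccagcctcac
Mcm6, first (chr1:128359790-128359829, minus strand): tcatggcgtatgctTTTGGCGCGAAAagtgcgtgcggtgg
Mcm6, second (chr1:128359731-128359766, minus strand): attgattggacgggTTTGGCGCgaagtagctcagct
Pola1 (chrX:93632272-93632307, minus strand): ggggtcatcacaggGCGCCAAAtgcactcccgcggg

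**Figure D1:**
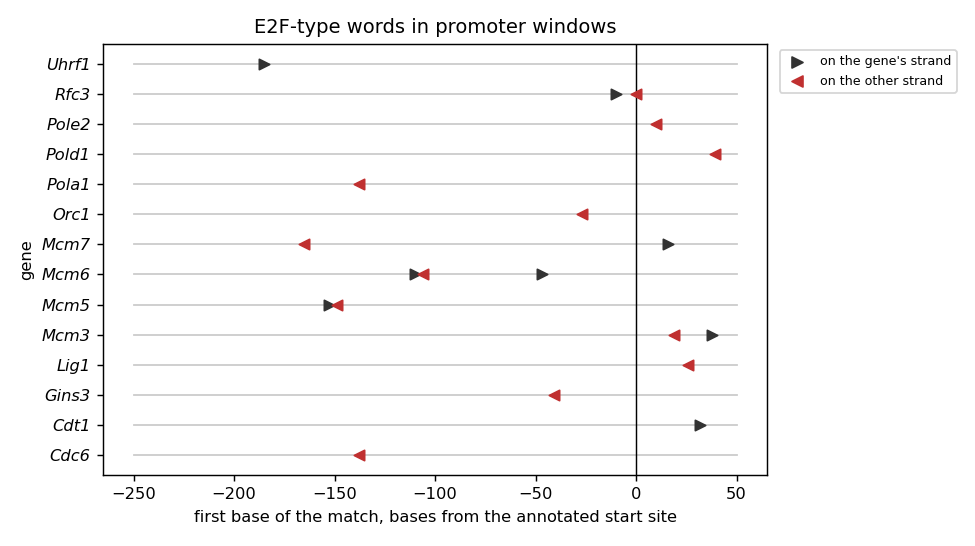
Position of each E2F-type word in the promoter windows of the 14 members that hold one; the x axis gives bases from the annotated start to the first base of the match, and arrowheads give the strand. The Mcm6 window holds 3 words and those of Mcm3, Mcm5, Mcm7 and Rfc3 hold 2 each.

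One library has to be named before the results. PND1 replicate 1 had the lowest value of the 8 libraries for 27 of the 45 members, where 30.1% of all genes tested were lowest in it. Its members summed to 1273 FPKM, against 1598 to 1625 FPKM in the other PND1 libraries. PND1 replicate 1 and PND4 replicate 1 also had the most genes listed at exactly 0, 1234 and 1097, against 222 to 858 in the other 6 libraries. Their correlations with other libraries across genes, on log2(FPKM + 1), were 0.854 to 0.894, against 0.899 to 0.947 among the other 6. Read depth is unknown, and totals over the listed genes ran from 443333 to 505035 FPKM. Of 19 granulosa markers 17 are rows of the table, without Fshr and Hsd17b1, and of 16 tested 7 had higher and 9 lower fitted values at PND4, 2 and 1 of them at an unadjusted p under 0.05. Foxl2, Gata4, Inha, Kitl, Krt8, Krt18, Nr5a1, Wnt4 and Wt1 were above 10 FPKM in every library. Amhr2, Fst, Inhbb, Irx3, Nr5a2, Rspo1 and Wnt6 were under 10 FPKM in at least 1 library. Amh was listed at 0 in 3 of 4 PND1 libraries and 1 PND4 library. The ages of 2 granulosa markers did not overlap, beside 4.24% of all genes tested. Wnt4 was lower at PND4 (22.0 ± 2.71 and 15.1 ± 2.43 FPKM) and Rspo1 higher (5.86 ± 0.643 and 9.35 ± 2.89 FPKM). Of the other cell types checked, smooth muscle markers summed highest, to 846 to 1537 FPKM at PND1 and 680 to 1316 FPKM at PND4, nearly all of it Acta2 and Tagln. Surface epithelium markers summed to 112 to 338 and 193 to 414 FPKM, and 6 of 7 had higher fitted values at PND4. Of the endothelial and leukocyte markers, 7 of 8 and 4 of 8 are not rows of the table. The endothelial marker listed, Esam, ran from 0.961 to 9.05 FPKM over the libraries. The 4 leukocyte markers listed summed to 8.82 to 28.3 FPKM at PND1 and 2.92 to 57.1 FPKM at PND4. The highest sum was that of PND4 replicate 1, where Lyz2 alone had 55.8 FPKM. Summed oocyte markers ran from 13.4 to 66.7 FPKM at PND1 and from 19.0 to 225 FPKM at PND4, and summed stroma markers from 183 to 205 and from 201 to 262 FPKM. Of the 10 stroma markers, all in the table, 9 had higher fitted values at PND4, 3 of them at an unadjusted p under 0.05. The 3 of 6 erythroid markers in the table summed to 17.1 to 48.9 FPKM at PND1 and 0.268 to 11.4 FPKM at PND4. Mitochondrially encoded entries took 26.6% to 30.6% of the total at PND1 and 22.4% to 29.4% at PND4. The part of these cells and of this share in the replication values was not tested.

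None of the 45 genes passed the test between PND1 and PND4. Of all 10756 genes tested, 1 (0.0093%) passed, the gene Gm16272, with less RNA at PND4. The test was limma's, on log2(FPKM + 1), with a threshold of 0.05 on the adjusted p. All 45 members passed the filter on low values, and their smallest adjusted p was 0.805. An unadjusted p under 0.05 was had by 1 member, Pold2, with more RNA at PND4. Of all genes tested 5.9% had one, 4.06% higher and 1.84% lower at PND4. With median-of-ratios or upper-quartile scaling, without mitochondrial entries, or with the replicate number as a block, 0 members had one. With any 1 library left out 0 to 2 members did. Of the members 36 had a higher and 9 a lower fitted value at PND4, beside 60.3% of all genes with a higher one, and the median log2 difference was 0.143, beside 0.078 for all genes tested. Without PND1 replicate 1 the split was 26 higher and 19 lower, beside 54.1% of all genes higher. The median was then 0.064, beside 0.0283 for all genes. With median-of-ratios scaling the split was 32 and 13, beside 51.2% of all genes higher, with a median of 0.071 beside 0.0081.

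The data limit how large a difference could be. The 95% interval of a member's log2 difference reached a median of 0.46 to either side, beside 0.65 for all genes tested. For 35 of the 45 members the interval lay within a 2-fold change in both directions, and for 43 it did not reach a 2-fold fall. The number within 2-fold was 33 to 40 with any 1 library left out. For 20 members the interval lay within 1.5-fold, and this number ran from 13 without PND1 replicate 4 to 32 without both libraries numbered 1. These intervals are on the log2(FPKM + 1) scale, are not adjusted for their number, and understate changes of members with low values.

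**Figure D2:**
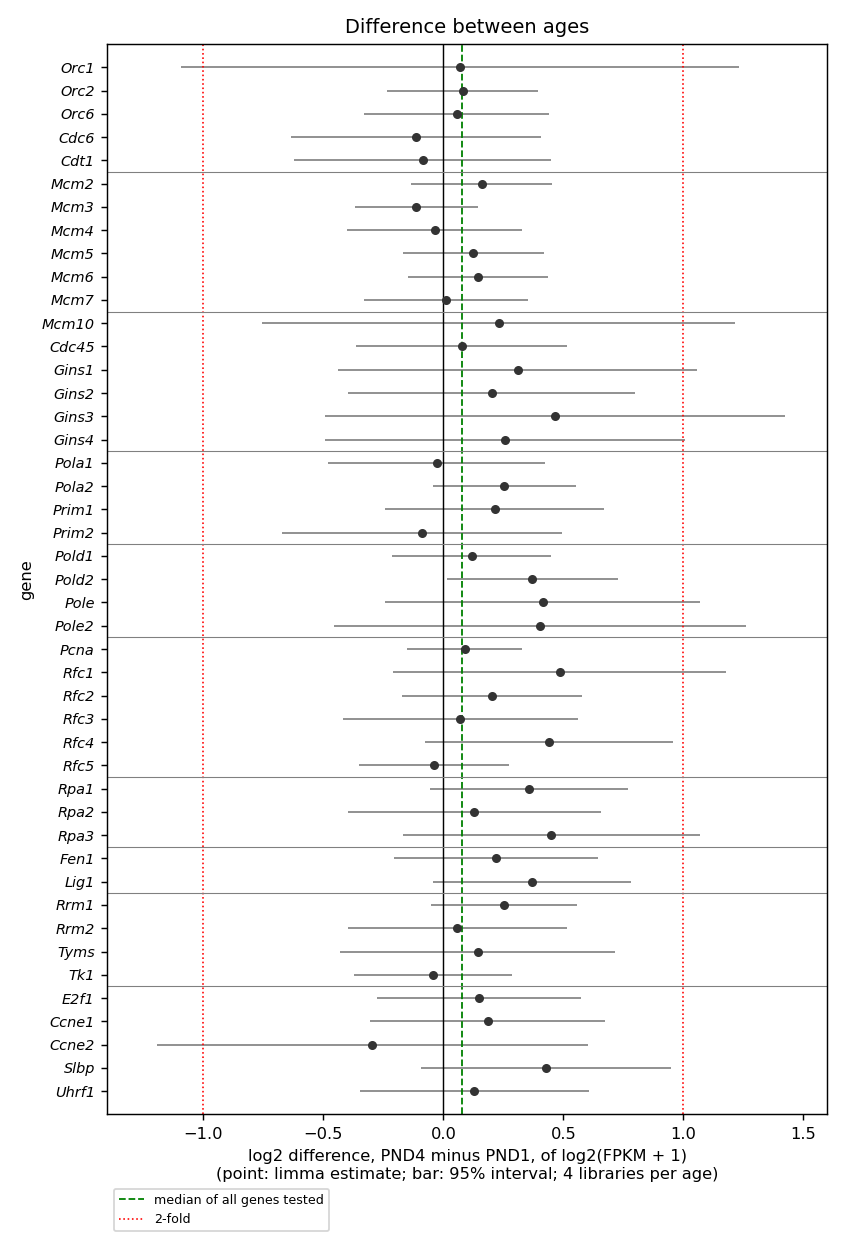
Fitted log2 difference, PND4 minus PND1, of log2(FPKM + 1) for each of the 45 members on the x axis, with its 95% interval (limma, 4 libraries per age), grouped by role from origin licensing at the top to S phase control at the bottom. The interval of Pold2 is the only one that does not cross 0, and its adjusted p was 0.805.

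The members lay in the upper range of levels. The median member stood at 23.1 FPKM as a mean over 8 libraries, beside 9.64 FPKM for all genes tested, and 38 of the 45 lay above that median. Between members the mean level ran from 3.11 FPKM for Gins3 to 220 FPKM for Pcna. The 9 most abundant members were Pcna, Rrm1, Rrm2 and all 6 subunits of the MCM ring.

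**Figure D3:**
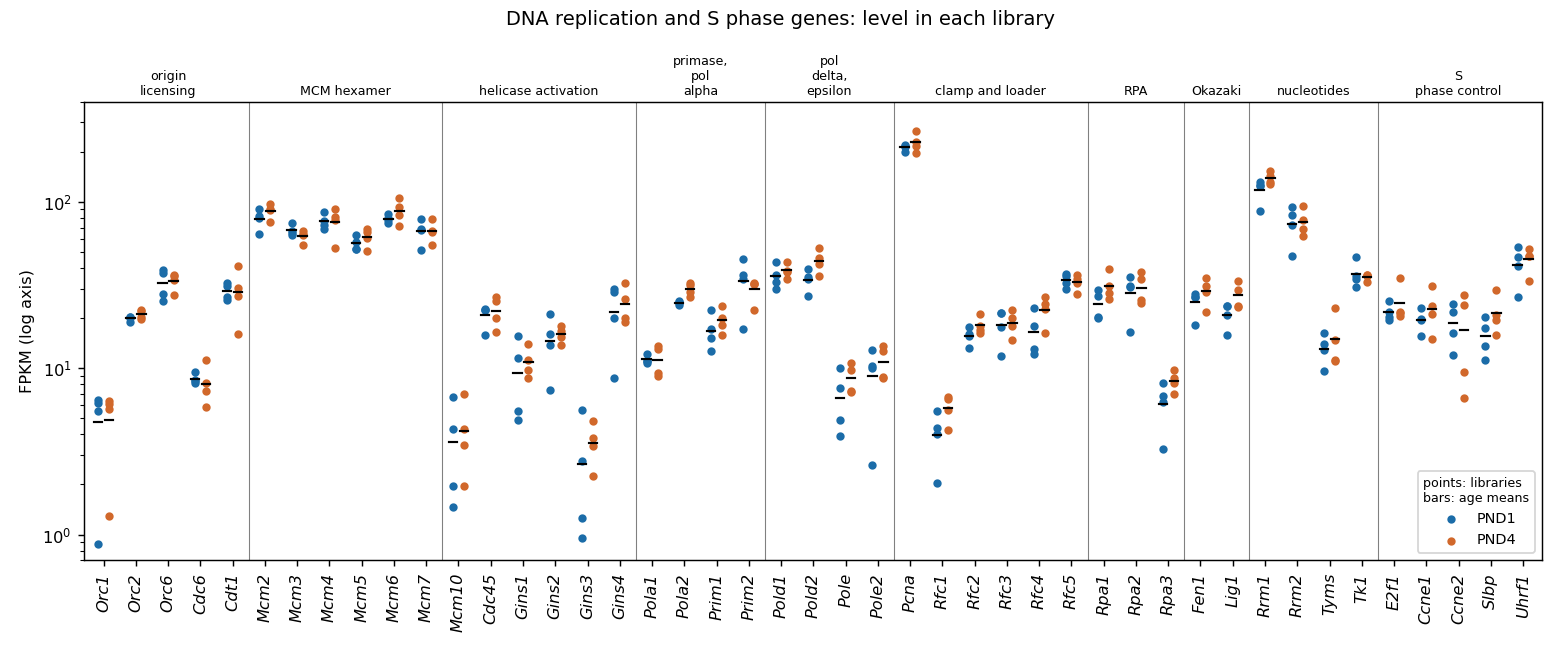
FPKM of the 45 members on a log axis, in each PND1 (blue) and PND4 (orange) library, with bars at the age means, grouped by role. Pcna is the highest at about 220 FPKM, the MCM ring genes lie in 1 band, and the points of the 2 ages overlap for all members except Pola2.

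Origin licensing genes ranged widely in level, and no difference between ages passed the test. Cdt1, whose protein delivers the MCM ring to origins, had 31.2, 25.7, 32.7 and 26.9 FPKM at PND1 and 16.1, 41.2, 30.4 and 27.0 FPKM at PND4. Its PND4 libraries spread to both sides of all PND1 libraries, and its log2 difference was -0.09 (95% interval -0.62 to 0.45). Cdc6, for the ATPase that acts with it, was lower, at 8.62 ± 0.569 and 8.08 ± 2.25 FPKM (SD, n = 4 per age here and below). Orc6 stood at 32.4 ± 6.82 and 33.3 ± 3.96 FPKM. Orc2, another subunit of the origin recognition complex, was the steadiest of the 45 members, with 19.1 to 22.2 FPKM over the 8 libraries and a log2 difference of 0.08 (95% interval -0.23 to 0.39). Orc1, the subunit that comes and goes with the cell cycle, varied most on the log2 scale. It had 0.875, 5.54, 6.46 and 6.20 FPKM at PND1 and 1.30, 6.32, 5.71 and 6.08 FPKM at PND4. The low value fell in replicate 1 of each age, and the other 6 libraries lay close together whatever the age. The difference of Orc1 ran from -0.409 to 0.473 with 1 library left out.

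The 6 subunits of the MCM ring lay within a narrow band in every library. The highest subunit exceeded the lowest by 1.37 to 1.75 times, and the mean of the 6 was 70.7 ± 5.58 FPKM at PND1 and 73.6 ± 9.74 FPKM at PND4. Mcm2 (chromosome 6 from 88883474 to 88898780, GRCm38) had 64.2, 90.6, 79.6 and 81.8 FPKM at PND1 and 75.7, 89.7, 96.5 and 90.4 FPKM at PND4. The ages overlapped, and the lowest value was that of PND1 replicate 1. Its log2 difference was 0.16 (95% interval -0.14 to 0.45, limma adjusted p = 0.852). Mcm6 (chromosome 1 from 128331590 to 128359664) had 74.2, 84.0, 79.7 and 78.1 FPKM at PND1 and 71.0, 105, 92.5 and 83.8 FPKM at PND4, with the lowest and the highest value both at PND4. Mcm5 stood at 56.2 ± 5.46 and 61.5 ± 7.90 FPKM, and Mcm4 at 76.2 ± 7.94 and 75.3 ± 16.1 FPKM. Mcm7 stood at 66.3 ± 11.2 and 66.6 ± 9.51 FPKM, and its log2 difference was 0.01. Mcm3 was the only subunit whose fitted difference stayed below 0 with each library left out, between -0.145 and -0.0558, at 67.3 ± 5.26 and 62.2 ± 5.01 FPKM (limma adjusted p = 0.874). Mcm2 was the highest subunit in 5 of the 8 libraries and Mcm5 the lowest in 5. Mcm2 and Mcm6 had the same mean, 83.6 FPKM, and differences between subunits were not tested.

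Helicase activation genes were far below the ring in level. The median within-age SD of their log2 values was 0.573, beside 0.177 for the ring, 0.279 for all 45 members and 0.403 for all genes tested. Cdc45, which joins the ring to make the helicase, stood at 20.8 ± 3.35 and 22.2 ± 4.80 FPKM, and its SD on the log2 scale, 0.279, was the lowest of the 6. Gins4, a subunit of the 4-part GINS complex, had 8.71, 29.8, 19.9 and 28.6 FPKM at PND1 and 19.9, 19.0, 32.5 and 26.0 FPKM at PND4. PND1 replicate 1 was the low point here too, and the sign of the difference, 0.26, turned without it (-0.109). Gins2 stood at 14.6 ± 5.66 and 16.0 ± 1.77 FPKM, and its sign also turned without that library (-0.0676). Gins2 shares 2758 of its 4097 exonic bases with Gse1 on the opposite strand, which was listed at 0 to 2.98 FPKM. Gins1 ran from 4.88 to 15.6 FPKM over the 8 libraries, Gins3 from 0.953 to 5.61 FPKM and Mcm10, a factor that helps fire origins, from 1.46 to 7.03 FPKM. Gins4 was between 4.16 and 15.8 times as high as Gins3, a wider gap than any within the MCM ring.

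The polymerase genes included Pold2, with the smallest p-value of the members, and Pola2, the only member whose ages did not overlap. Pola2 (chromosome 19 from 5940542 to 5964202), for the accessory subunit of polymerase alpha, had 24.5, 25.1, 25.3 and 24.0 FPKM at PND1 and 28.6, 31.5, 32.3 and 26.6 FPKM at PND4. All PND4 libraries lay above all PND1 libraries, and 4.24% of all genes tested had ages that did not overlap, 3.16% higher and 1.08% lower at PND4. Its log2 difference was 0.25 (95% interval -0.04 to 0.55, limma unadjusted p = 0.0868, adjusted p = 0.805), and 0.214 to 0.304 with any 1 library left out. In the authors' deposited table Pola2 has a p-value of 0.0180 and a q-value of 0.742, and it is the only member there with a p-value under 0.05, beside 6.55% of all rows. Pola1, for the catalytic subunit, was at 11.3 ± 0.640 and 11.2 ± 2.40 FPKM, and its log2 difference was -0.03. Pola2 was 2.00 to 3.43 times as high as Pola1.

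Pold2 (chromosome 11 from 5872180 to 5878292), for a polymerase delta subunit, had 39.3, 34.4, 27.2 and 35.2 FPKM at PND1 and 36.0, 45.8, 53.0 and 42.5 FPKM at PND4. The ages overlapped through PND1 replicate 1 and PND4 replicate 1. Its log2 difference was 0.37 (95% interval 0.01 to 0.73, limma unadjusted p = 0.0435, adjusted p = 0.805). The unadjusted p was not under 0.05 with any of the 3 other scalings or with the replicate number as a block. Pold1, the catalytic subunit of the same enzyme, was at 35.8 ± 5.88 and 38.6 ± 3.72 FPKM. The polymerase epsilon genes were lower, with the catalytic Pole at 6.59 ± 2.74 and 8.74 ± 1.74 FPKM and Pole2 at 8.94 ± 4.39 and 10.97 ± 2.59 FPKM. Pole2 had 2.63 FPKM in PND1 replicate 1 and at least 8.69 FPKM elsewhere, and its difference of 0.40 turned to -0.0271 without that library. Of the primase genes, Prim1 was at 16.8 ± 4.10 FPKM at PND1 and 19.5 ± 3.35 FPKM at PND4. Prim2 was higher, at 33.4 ± 11.8 FPKM and 29.9 ± 4.99 FPKM.

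The sliding clamp gene Pcna (chromosome 2 from 132249162 to 132253314) was the most abundant member and one of the steadiest. It had 200, 220, 216 and 213 FPKM at PND1 and 198, 216, 229 and 266 FPKM at PND4. The ages overlapped, and the PND4 libraries held both the lowest and the highest value. Its log2 difference was 0.09 (95% interval -0.15 to 0.33, limma adjusted p = 0.893), the narrowest interval of the 45, and it was 0.011 without PND4 replicate 4. A processed pseudogene, Pcna-ps2, is listed at 36.8 ± 7.92 and 40.6 ± 3.17 FPKM, and reads of near-identical copies may be split between them.

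The clamp loader genes were lower than the clamp and unequal among themselves. Rfc5 stood at 33.7 ± 3.22 and 32.8 ± 3.66 FPKM, Rfc4 at 16.6 ± 5.10 and 22.4 ± 4.43 FPKM, and Rfc1, the large subunit, at 3.98 ± 1.45 and 5.78 ± 1.12 FPKM. Rfc1 had the largest fitted difference of the members, 0.48, with an interval from -0.21 to 1.18. Rfc4 followed the same direction (0.44, 95% interval -0.08 to 0.96), and Rfc5 was at -0.04 (95% interval -0.35 to 0.27). Rfc2 and Rfc3 had means of 16.9 and 18.5 FPKM over all libraries. Rfc5 shares 499 of its 4669 exonic bases with Wsb2 on the opposite strand, listed at 136 ± 13.6 and 124 ± 11.1 FPKM. Rfc4 shares 194 of its 1533 with Eif4a2, also opposite, listed at 20.3 ± 3.01 and 21.3 ± 4.31 FPKM. The part of these neighbours in the Rfc5 and Rfc4 values was not tested.

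RPA, which coats single-stranded DNA, was higher at PND4 by its fitted values in all 3 subunits, none past the test. Rpa1 had 20.1, 20.3, 29.7 and 27.2 FPKM at PND1 and 31.4, 39.6, 28.4 and 25.9 FPKM at PND4. The upper PND1 libraries lay among the lower PND4 ones, and the log2 difference was 0.355 (95% interval -0.06 to 0.77). Rpa3 differed by 0.45 (95% interval -0.17 to 1.07) from a low level, 6.11 ± 2.05 and 8.39 ± 1.12 FPKM. Rpa2 stood at 28.4 ± 8.18 and 30.5 ± 6.39 FPKM, and its sign turned without PND1 replicate 1 (-0.102).

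The enzymes that finish lagging-strand fragments, the flap nuclease gene Fen1 and the ligase gene Lig1, were at similar levels. Fen1 stood at 24.9 ± 4.53 and 29.2 ± 5.55 FPKM. For Lig1 the values were 15.8, 23.7, 20.9 and 23.6 FPKM at PND1 and 33.3, 23.5, 29.6 and 23.2 FPKM at PND4, so that 2 PND4 libraries lay above all of PND1 and the other 2 within it (log2 difference 0.37, limma unadjusted p = 0.0745, adjusted p = 0.805). Fen1 shares 1909 of its 2422 exonic bases with the antisense gene Gm10143, listed between 0.721 and 27.6 FPKM. No source used here says whether strand was counted, and the values of Fen1 and its partner are therefore uncertain. In all, 15 members share some exonic bases with a gene on the opposite strand, and the strand setting is unknown for all of them.

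Nucleotide supply was led by ribonucleotide reductase, which makes deoxyribonucleotides. Rrm1 (chromosome 7 from 102441695 to 102469771), for its large subunit, had 88.4, 124, 125 and 131 FPKM at PND1 and 127, 154, 142 and 131 FPKM at PND4. PND1 replicate 1 stood apart below, and the other 3 PND1 libraries met the lower end of PND4. Its log2 difference was 0.25 (95% interval -0.05 to 0.56, limma unadjusted p = 0.0940, adjusted p = 0.805), and 0.124 without that library. The small subunit gene Rrm2, whose protein is made in S phase, had 47.1, 92.9, 72.3 and 83.7 FPKM at PND1 and 77.5, 94.4, 62.4 and 68.3 FPKM at PND4. Its difference of 0.06 turned to -0.142 without PND1 replicate 1. In every library Rrm1 was above Rrm2, by 1.33 to 2.28 times. The thymidine kinase gene Tk1 stood at 36.9 ± 6.79 and 35.4 ± 1.64 FPKM, and thymidylate synthase (Tyms) at 13.1 ± 2.77 and 15.0 ± 5.65 FPKM.

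Of the 5 regulators of S phase entry and chromatin copying, 4 had higher and 1 lower fitted values at PND4, and 0 passed the test. E2f1, the activator of this program, had 21.8, 19.4, 20.3 and 25.2 FPKM at PND1 and 34.6, 20.4, 21.5 and 21.7 FPKM at PND4. Only PND4 replicate 1 stood out, and without it the log2 difference of 0.15 was -0.0241. The same library was the highest of the 8 for cyclin E1 (Ccne1) and the lowest for cyclin E2 (Ccne2), the 2 partners of CDK2 at the G1/S boundary. Ccne1 stood at 31.3 and Ccne2 at 6.63 FPKM in it, so that Ccne1 was 4.73 times as high as Ccne2, against 0.807 to 1.59 times in the other 7 libraries. Over all libraries Ccne1 was at 19.5 ± 3.09 and 22.8 ± 6.73 FPKM and Ccne2 at 18.6 ± 5.48 and 16.9 ± 10.4 FPKM. Ccne2 had the lowest fitted difference of the members, -0.30 (95% interval -1.19 to 0.60), and it was 0.0439 without PND4 replicate 1. Uhrf1, which helps copy DNA methylation after the fork, stood at 41.9 ± 11.5 and 45.1 ± 8.04 FPKM, and Slbp, for the histone mRNA binding protein, at 15.6 ± 4.06 and 21.4 ± 5.84 FPKM.

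**Figure D4:**
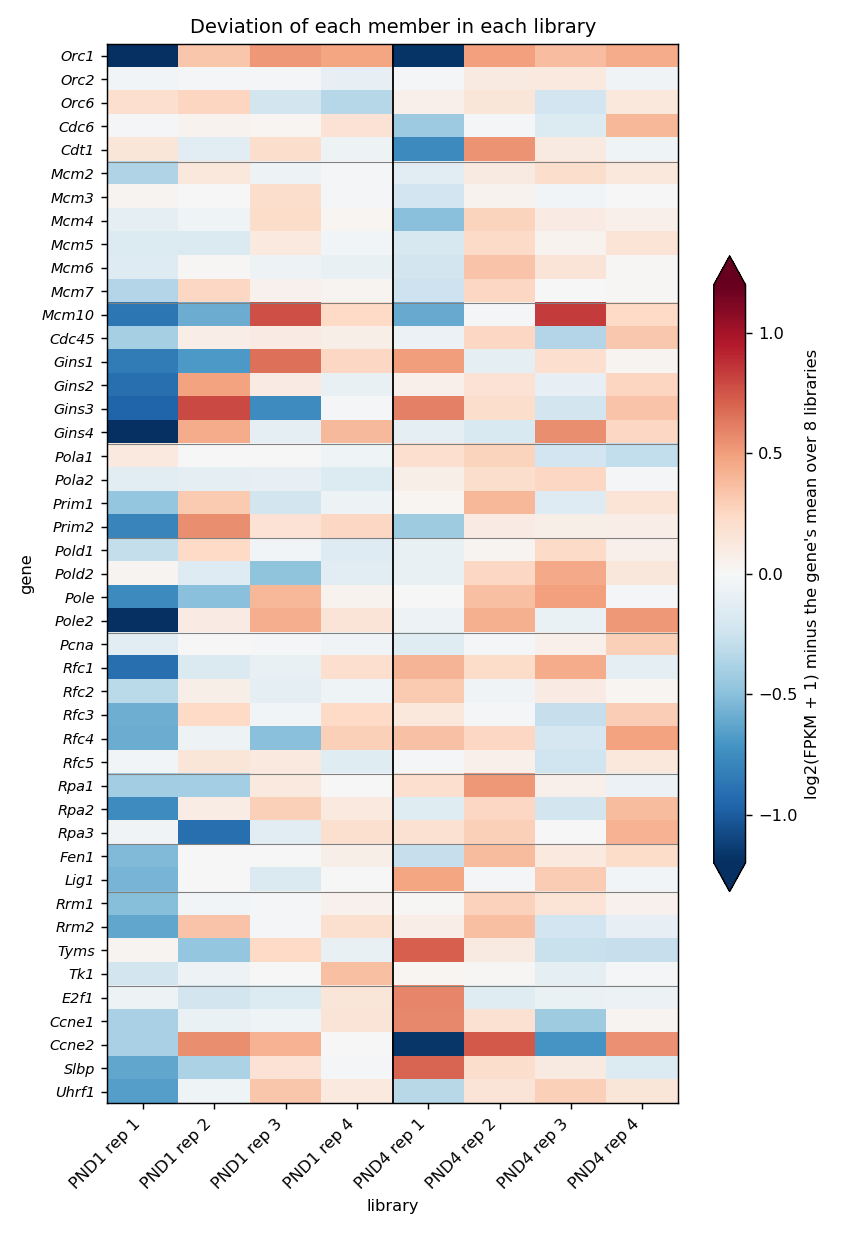
Each member's log2(FPKM + 1) in each library minus its mean over the 8 libraries, as colour (blue lower, red higher), with genes in rows by role and libraries in columns. PND1 replicate 1 is blue for most rows, with 27 of the 45 members at their lowest there, and the rows of Orc2, Mcm3, Pola2 and Pcna are among the palest.

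The library effect was measured against the other libraries of the same age. In PND1 replicate 1, 37 of the 45 members were below the mean of the other 3 PND1 libraries, 82.2%, beside 61.8% of all genes tested, and the median of their log2 differences from that mean was -0.461 (all genes, -0.164). In PND4 replicate 1 the members were below the other PND4 libraries in 64.4% of cases and all genes in 64.0%, close to each other. The summed FPKM of 30 mitosis genes was also lowest in PND1 replicate 1, at 228 FPKM against 452 to 596 FPKM in the other PND1 libraries. Its granulosa markers were not all at one end. Krt18 at 552 FPKM and Krt8 at 392.4 FPKM made up most of a marker sum of 1284 FPKM (978 to 1318 FPKM in the other PND1 libraries), while Foxl2 at 10.5 FPKM and Inhbb at 7.74 FPKM were the lowest of the 8 libraries and Wnt6 was listed at 0. The part of these differences in the replication values was not tested.

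**Figure D5:**
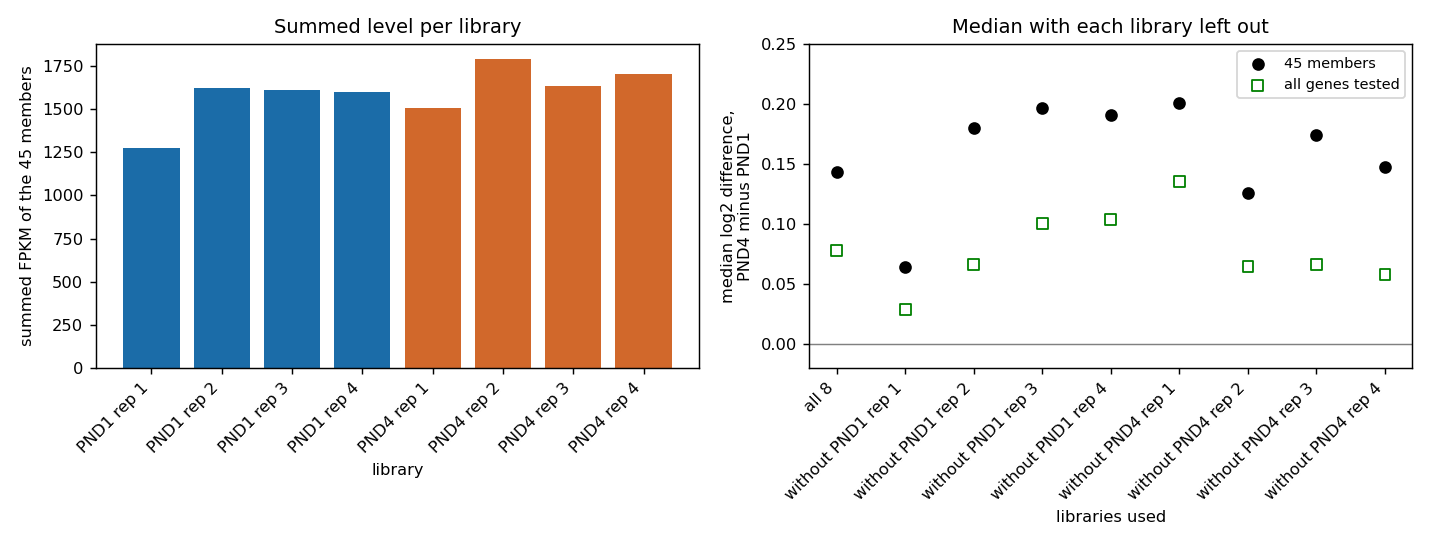
Left, the summed FPKM of the 45 members in each library (bars from 0, PND1 blue, PND4 orange), lowest in PND1 replicate 1 at 1273 FPKM. Right, the median log2 difference (PND4 minus PND1) of the members and of all genes tested with all 8 libraries and with each left out, lowest at 0.064 for the members when PND1 replicate 1 is left out and highest at 0.201 when PND4 replicate 1 is.

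Of the other genes of the pathway, in 5 lists, 0 passed the test (limma, adjusted p under 0.05). Of 33 further replication genes tested, 23 had higher and 10 lower fitted values at PND4 (median 0.154), 0 with an unadjusted p under 0.05. The most abundant were Ssrp1, a subunit of the histone chaperone FACT, at 76.4 ± 25.3 and 104 ± 6.07 FPKM, and Chtf8, of an alternative clamp loader, at 56.8 ± 10.5 and 53.4 ± 3.96 FPKM. The ages of 2 of the 33, Ssrp1 and Rnaseh2a, did not overlap, beside 4.24% of all genes tested. The difference of Ssrp1, 0.52 (limma adjusted p = 0.805), was 0.231 without PND1 replicate 1. Of 11 further nucleotide supply genes, 7 were higher and 4 lower (median 0.137), with the nucleotide kinase genes Nme1 at 32.4 ± 4.31 and 38.6 ± 6.24 FPKM and Dtymk at 37.3 ± 5.45 and 35.1 ± 4.39 FPKM. Without PND1 replicate 1 that median was 0.002.

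Of 21 genes of G1/S control, 9 were higher and 12 lower (median -0.064). This median took both signs with 1 library left out, from -0.074 to 0.085. At an unadjusted p under 0.05, 2 were higher and 0 lower, beside 4.06% and 1.84% of all genes tested. The most abundant were cyclin D2 (Ccnd2), at 187 ± 20.9 and 155 ± 19.3 FPKM (log2 difference -0.27), and its kinase gene Cdk4, at 131 ± 4.23 and 125 ± 18.8 FPKM. Of 6 CDK inhibitor genes, 4 were higher and 2 lower (median 0.554, and 0.172 without PND1 replicate 1), with 1 in each direction at an unadjusted p under 0.05. Cdkn1a (p21, a target of p53) stood at 79.5 ± 8.40 and 117 ± 30.6 FPKM and Cdkn2b (p15) at 23.2 ± 4.93 and 8.92 ± 6.34 FPKM (limma adjusted p = 0.740 for both). Cdkn2b was at 0.929 FPKM in PND4 replicate 1 and at 8.74 to 16.4 FPKM in the other PND4 libraries, and its log2 difference of -1.63 was -0.967 without that library. Of 29 mitosis genes 24 were higher and 5 lower, 0 of them at an unadjusted p under 0.05. Their median was 0.354, 0.047 without PND1 replicate 1 and -0.076 without both libraries numbered 1. Ube2c stood at 77.1 ± 33.8 and 93.8 ± 35.5 FPKM and Birc5 at 47.2 ± 10.6 and 46.6 ± 7.20 FPKM.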

How the data were processed

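RNA was extracted from isolated granulosa cells with the RNeasy Plus Micro Kit and sequenced on Illumina libraries, per the labels' protocols. The submitters' processing notes name Trim Galore, HISAT2 and GRCm38. The authors deposited FPKM values in 1 table, per the file headers. A separate table holds the authors' deposited ratio of PND1 over PND4, its log2 value, and a p-value with a q-value for each gene. No source used here names the counting program, annotation, strand setting, filter or the test behind these.

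Values were taken as log2(FPKM + 1). A gene was kept with 1 FPKM or more in 4 or more libraries (10756 of 11783), and PND4 minus PND1 was tested with limma 3.58.1 in R 4.3.3 (mean-dependent prior variance, no block, Benjamini-Hochberg threshold 0.05). Depth could not be recovered: at the best of many trial depths, 24.6% to 27.5% of low values came within 0.1 of whole reads. Chance gives 20% at 1 fixed depth, and its level for the best of many was not computed. In simulated data for this comparison and its 10756 genes the step recovered 5.82% of 1.5-fold, 23.9% of 2-fold and 59.2% of 4-fold changes. Noise was drawn for each gene on its own, without an effect shared by a library, and calls counted whatever their sign. The changed genes were drawn from all genes tested, with a median SD of 0.403 beside 0.279 for the members. These shares are therefore not those of the members. Members and lists were chosen with earlier results of these data known. Members were named by level (up to 3 per role), by the 4 smallest p-values in each direction and as core genes. Of each other list the 2 genes with the highest level were named. The remaining members, Gm16272 and overlapping genes were added after their values were seen. Positions are from GENCODE M21 on GRCm38, which holds 11774 of the 11783 identifiers. Alternatives were 3 scalings, 2 filters, pseudocounts of 0.1 and 5, the replicate number as a block, 2 variance models and leaving out each library. Leaving out both libraries numbered 1 was chosen after seeing the data.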

Additional observations from a re-analysis of the deposited data

Results flagged for a closer look

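Within each age the 45 members and their sum were checked for a library that stands apart from the other 3, in 92 groups of 4, of which 8 had one. Chance gives about 1 in 20 for a single group. The groups share the same libraries and the sum holds the members again, so they are not independent and this is no test. Of the 8 groups that had one, 5 fell on PND1 replicate 1 and 3 on PND4 replicate 1. In PND1 replicate 1 the lowest values were Orc1 at 0.875 FPKM (others 5.54 to 6.46), Cdc45 at 15.8 FPKM (22.3 to 22.7), Fen1 at 18.2 FPKM (26.7 to 28.0), Rrm1 at 88.4 FPKM (124 to 131) and the sum of the members at 1273 FPKM (1598 to 1625). In PND4 replicate 1 Orc1 was low at 1.30 FPKM (5.71 to 6.32), Prim2 was low at 22.4 FPKM (32.2 to 32.7) and E2f1 was high at 34.6 FPKM (20.4 to 21.7). Both libraries also list the most genes at 0, and the part of this in the values was not tested.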

How the results depend on the processing

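No member and no gene of the other pathway lists was called under any alternative run. Over all genes 1 was called with the settings used, 2 with array weights, 0 without both libraries numbered 1, and 0 to 1 with 1 library left out. The median of the members ran from 0.064 to 0.201 with 1 library left out and was 0.065 with upper-quartile scaling and 0.079 without both libraries numbered 1. Deviations of same-numbered libraries correlated at 0.0457, -0.00882, 0.032 and 0.124, and not every library correlated best with its own number. Differently numbered pairs ran from -0.142 to 0.113. No label says what a replicate number marks, and these correlations cannot settle whether it pairs libraries. With the replicate number as a block 0 members were called, the median was 0.143 and 1 gene was called over all genes. Other settings with all libraries kept, and the fit without both libraries numbered 1, were compared for 44 genes. These were the genes named by level, by p-value or as core genes. Signs of differences of up to 0.31 (Ube2c, settings used) turned in 25 of the 484 pairs of a gene and such a fit. With median-of-ratios scaling these were Orc6 (-0.0223), Mcm7 (-0.0675) and Rrm2 (-0.0205), and with upper-quartile scaling Orc2 (-0.000942), Orc6 (-0.0277), Mcm7 (-0.0732), Cdc45 (-0.0046) and Rrm2 (-0.0264). Without mitochondrial entries Mcm7 turned (-0.00473), and with array weights Cdt1 (0.0771), Mcm4 (0.0267), Rrm2 (-0.0591) and Ube2c (-0.076). Without both libraries numbered 1 they were Cdt1 (0.19), Mcm4 (0.079), Mcm7 (-0.0194), Cdc45 (-0.00834), Gins2 (-0.0554), Gins4 (-0.0272), Rpa2 (-0.0302), Rrm2 (-0.159), E2f1 (-0.0188), Ccne1 (-0.0785), Dtymk (0.0182) and Ube2c (-0.181). With 1 library left out 20 of the same 44 genes took both signs: Orc6 (-0.0509 to 0.149), Cdc6 (-0.264 to 0.0139), Cdt1 (-0.28 to 0.155), Mcm4 (-0.131 to 0.125), Mcm7 (-0.105 to 0.0958), Cdc45 (-0.0447 to 0.206), Gins2 (-0.0676 to 0.396), Gins4 (-0.109 to 0.447), Prim2 (-0.371 to 0.0802), Pole2 (-0.0271 to 0.615), Rfc5 (-0.0953 to 0.0345), Rpa2 (-0.102 to 0.247), Rrm2 (-0.142 to 0.18), Tk1 (-0.124 to 0.07), E2f1 (-0.0241 to 0.22), Ccne2 (-0.59 to 0.0439), Uhrf1 (-0.0697 to 0.261), Chtf8 (-0.165 to 0.0201), Dtymk (-0.16 to 0.00211) and Birc5 (-0.158 to 0.0893). Among the members added later, Orc1 (-0.409 to 0.473), Mcm10 (-0.0218 to 0.525), Pola1 (-0.121 to 0.0645), Rfc3 (-0.112 to 0.174) and Tyms (-0.0741 to 0.258) also did. Of all 45 members, 23 kept their sign in every such fit. The cause was not tested. Read depth is unknown, so no counting error could be given for any value.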
